A study of Homo sapiens with 4 samples.

Results

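MIR100HG is a long noncoding RNA (lncRNA) gene on the long arm of chromosome 11 that carries the microRNA genes MIR100, MIRLET7A2 and MIR125B1 inside its transcribed region. It was followed here in MDA-MB-231-P3 and in its parent MDA-MB-231, an established human line of triple-negative breast cancer. Its members were all rows of the deposited lncRNA table named MIR100HG followed by a colon and an isoform number: 103 of 104786 isoform rows, which together form 1 of 46902 genes. MDA-MB-231-P3 is a highly metastatic subline, obtained by 3 rounds in which cells were injected into mouse tail veins, recovered from lung tumours and grown in culture. MDA-MB-231 is the line before selection. Each line had 2 libraries, made from the mRNA fraction with the strand of the RNA recorded. The labels give no treatment beyond this selection and do not state if the 2 libraries per line are separate cultures. The p-values therefore describe the spread among these libraries alone, and that spread may be technical. Only 1 selected subline was sequenced, so selection itself cannot be told apart from other differences between these 2 cultured populations.

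A microRNA host is transcribed as a long precursor, from which the Drosha and Dicer enzymes release the short mature microRNAs, while the remaining RNA is spliced and can persist as a lncRNA. The miR-100 and miR-125b families and let-7 act by pairing of their seed, bases 2 to 8, with target messenger RNAs. Let-7 is known for repressing RAS and HMGA2 messages, and miR-100 for targeting the MTOR kinase. MIR100HG has been linked to TGF-β signalling and to epithelial-mesenchymal transition in tumour cells. The table held 0 rows named for the 3 microRNA genes themselves, so every value below is of the host RNA and not of a mature microRNA.

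The 5p mature microRNAs of the 3 genes inside MIR100HG are shown with the seed in capitals, because the host is defined by what it carries. Sequences are from RefSeq (GRCh38.p14) and were found unchanged on the minus strand of hg19 chromosome 11, at chr11:122022983-122023004 for miR-100, chr11:122017276-122017297 for let-7a and chr11:121970517-121970538 for miR-125b.
hsa-miR-100-5p: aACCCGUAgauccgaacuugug
hsa-let-7a-5p: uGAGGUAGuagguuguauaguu
hsa-miR-125b-5p: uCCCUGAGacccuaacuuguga

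A second gene, MIR99AHG on chromosome 21, carries a sister cluster, MIR99A, MIRLET7C and MIR125B2. Its products are shown because each shares its seed with a product of MIR100HG. They lie on the plus strand of hg19 at chr21:17911421-17911442 for miR-99a and chr21:17912158-17912179 for let-7c.
hsa-miR-99a-5p: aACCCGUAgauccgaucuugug
hsa-let-7c-5p: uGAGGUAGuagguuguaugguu
Counted from 1 at the 5′ end, miR-100-5p and miR-99a-5p differ by 1 base, A16U, and let-7a-5p and let-7c-5p by 1 base, A19G. The miR-125b-5p of both clusters is the same sequence, with 0 differences. A mature miR-125b-5p read can therefore come from either host, whereas the host rows are kept apart by gene. Of 2370 mature microRNA names in the RefSeq table, 3 have the seed of miR-100, 11 that of let-7a and 3 that of miR-125b.

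In GENCODE release 44 lifted to hg19, MIR100HG (ENSG00000255248.11) runs along the minus strand at chr11:121899033-122427429, a span of 528 kb, with 107 annotated transcripts. These transcripts have 1 to 10 exons and spliced lengths of 310 to 4534 bases, with a median of 1434. MIR100 (122022937 to 122023016) and MIRLET7A2 (122017229 to 122017301) are 5.64 kb apart, and each is spanned by 24 of the 107 transcripts, in all 24 of them within an intron. MIR125B1 (121970465 to 121970552) lies a further 46.7 kb downstream and is spanned by 65 transcripts, again within an intron in all 65. No annotated exon overlaps any of the 3 hairpins. The deposited rows are numbered from 1 to 104, with number 12 not listed, and neither these numbers nor the files tie a row to a GENCODE transcript. Which rows span which microRNA is therefore not given here.

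**Figure D1:**
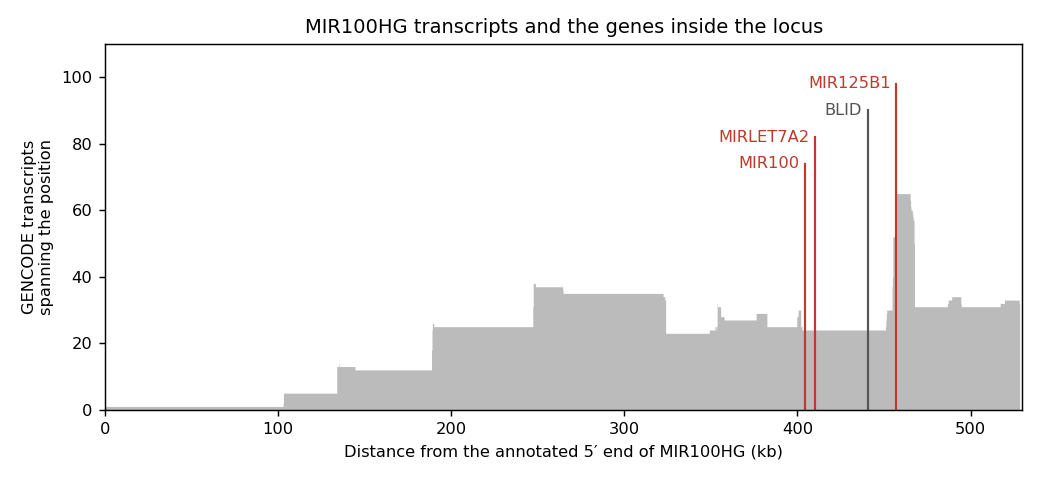
Number of the 107 GENCODE transcripts of MIR100HG that span each position (grey, vertical axis) against distance in kb from the annotated 5′ end of the gene (horizontal axis). Vertical lines mark the 3 microRNA genes (red) and the protein-coding gene BLID (dark grey): MIR100 and MIRLET7A2 are spanned by 24 transcripts each and MIR125B1 by 65.

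Values are FPKM, fragments per kilobase of transcript and scaled to the fragments mapped in the library, a scale on which rows of different length can be compared. The table summed to 351135 and 372689 FPKM in MDA-MB-231-P3, against 460282 and 500086 FPKM in MDA-MB-231, and the 10 highest isoforms held 67.7% to 72.7% of it. Read depth is unknown, since FPKM are not counts and low values run far below what a single read could give. None of 6 protein-coding markers searched (VIM, CD44, EPCAM, ESR1, PGR, ERBB2) has a row, so the breast cancer identity could not be checked by them. Of 9 lncRNA markers of other cell types, 5 are listed, and none of these exceeded 0.0783 FPKM in any library. Their summed level was 0.0599 to 0.181 FPKM in MDA-MB-231-P3 and 0.00892 to 0.0932 FPKM in MDA-MB-231. Among these, DSCAM-AS1 of oestrogen receptor positive breast cells and LINC00861 of lymphocytes were at or near 0 in all 4 libraries. MIR155HG, also of lymphocytes, was at 0.0783 and 0.0240 FPKM in MDA-MB-231-P3, against 0.0747 and 0.00139 FPKM in MDA-MB-231. CARMN of smooth muscle was at 0.0509 and 0.0359 FPKM, against 0.0185 and 0.00753 FPKM. HOTAIRM1 of myeloid cells was at 0.0514 FPKM in MDA-MB-231-P3 library 1 and at 0 elsewhere.

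Summed over its rows, MIR100HG was listed at 44.2 and 41.2 FPKM in MDA-MB-231-P3, against 23.6 and 22.8 FPKM in MDA-MB-231. Both MDA-MB-231-P3 libraries lay above both MDA-MB-231 libraries and the groups did not overlap. The means were 42.7 ± 2.16 FPKM in MDA-MB-231-P3 and 23.2 ± 0.594 FPKM in MDA-MB-231 (SD, n = 2 each), a ratio of 1.84. In bulk RNA, more cells carrying the transcript and more transcript per cell cannot be told apart.

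The difference did not pass the test across all genes. On log2(FPKM + 0.5) it was 0.87 (SE 0.24, 95% interval 0.21 to 1.52), with a limma adjusted p of 0.282 over 6444 genes. The interval corresponds to 1.16-fold to 2.87-fold. Of the 6444 tested genes, limma called 4, or 0.0621%, and 2 of these, or 0.031%, were higher in MDA-MB-231-P3. Unadjusted, MIR100HG was among the genes under 0.05. Both subline libraries lay above both parental ones for 28.9% of tested genes, and 9.5% had an unadjusted p under 0.05 with a higher level in MDA-MB-231-P3. A separation of the groups such as that of MIR100HG was thus common in this table. A smaller p was reached by 469 genes, 7.28% of those tested, and 16.4% had a larger log2 difference.

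In the sum of MIR100HG, the libraries of each line were close to each other. On the log2 scale this sum differed by 0.10 within MDA-MB-231-P3 and by 0.051 within MDA-MB-231. The median over all tested genes was 0.38 within MDA-MB-231-P3 and 0.45 within MDA-MB-231. Of the tested genes, 16.3% had a smaller difference than MIR100HG between the subline libraries and 8.91% between the parental ones. Limma shares its estimate of the spread across genes, so this closeness of the libraries enters the adjusted p of MIR100HG only in part.

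MIR100HG ranked 176th and 194th of all genes by level in the MDA-MB-231-P3 libraries and 304th and 307th in the MDA-MB-231 libraries. As a share of the summed FPKM of the table it took 1.26 and 1.11 parts in 10000 in MDA-MB-231-P3, against 0.513 and 0.455 parts in MDA-MB-231, a ratio of 2.44. This ratio exceeds that of the FPKM because the table's sum was lower in the subline. With the 10 highest isoforms of each library taken out of the sum, the share was 4.11 and 3.45 parts in MDA-MB-231-P3, against 1.88 and 1.41 parts in MDA-MB-231. Scaling libraries to the same sum moved the median log2 difference of all genes to 0.41, against 0.090 as deposited. Relative to that median, MIR100HG differed by 0.86 after scaling and by 0.78 as deposited.

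**Figure D2:**
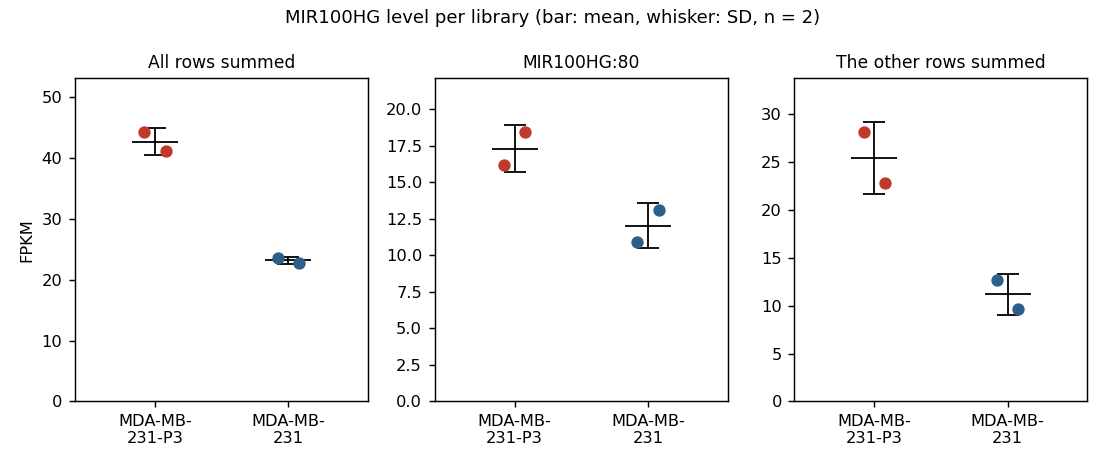
FPKM (vertical axis, from 0) of MIR100HG in the libraries of MDA-MB-231-P3 (red) and MDA-MB-231 (blue) for all rows summed, for the isoform MIR100HG:80 and for the other rows summed; each point is a library, bars are means and whiskers SD (n = 2 each). The groups do not overlap in any panel, and the ratio of the means is 1.84, 1.44 and 2.28.

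Few of the 103 rows carried the signal. In the 4 libraries, 69 rows never reached 0.001 FPKM, and 9 of these were listed at exactly 0 throughout. In a table without counts a 0 need not mean absence, so these values are given as listed. A mean of at least 0.5 FPKM was reached by 15 rows, which held 93.0% and 91.0% of the sum in MDA-MB-231-P3 and 92.6% and 94.1% in MDA-MB-231. A further 19 rows fell below that mean and reached 0.001 FPKM in some library, 11 of them 0.1 FPKM. Just under the minimum, MIR100HG:18 was listed at 0.191 and 0.930 FPKM in MDA-MB-231-P3, against 0.212 and 0.166 FPKM in MDA-MB-231. The 88 rows below the minimum summed to 3.08 and 3.69 FPKM in MDA-MB-231-P3, against 1.74 and 1.35 FPKM in MDA-MB-231.

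The leading isoform in every library was MIR100HG:80. It was listed at 16.2 and 18.4 FPKM in MDA-MB-231-P3, against 10.9 and 13.1 FPKM in MDA-MB-231. Both subline libraries were above both parental libraries, by a ratio of means of 1.44. The log2 difference was 0.51 (SE 0.30, 95% interval -0.30 to 1.32, limma adjusted p = 0.525 over 8432 isoforms). The interval includes no difference as well as the size seen for the sum.

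Taken without MIR100HG:80, the rows summed to 28.1 and 22.8 FPKM in MDA-MB-231-P3, against 12.7 and 9.65 FPKM in MDA-MB-231. The groups did not overlap here either, the means had a ratio of 2.28, and the log2 difference was 1.16 (SE 0.29, limma adjusted p = 0.268). Of the total difference of 19.5 FPKM between the means of the lines, MIR100HG:80 made up 26.9%, and MIR100HG:15, MIR100HG:29 and MIR100HG:102 made up 14.3%, 12.4% and 11.5%. MIR100HG:15 was listed at 4.51 and 3.11 FPKM in MDA-MB-231-P3, against 0.657 and 1.38 FPKM in MDA-MB-231. Its groups did not overlap, its means had a ratio of 3.74, and the log2 difference was 1.53 (SE 0.40, limma adjusted p = 0.323).

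MIR100HG:29 was listed at 4.14 and 2.11 FPKM in MDA-MB-231-P3, against 0.988 and 0.405 FPKM in MDA-MB-231. MIR100HG:102 was listed at 3.798 and 2.004 FPKM in MDA-MB-231-P3, against 0.936 and 0.387 FPKM in MDA-MB-231. The groups of both rows did not overlap, and library 1 was the higher one in each line. The ratio of MIR100HG:29 to MIR100HG:102 stayed between 1.05 and 1.09 in the 4 libraries, whereas the level of each row ranged widely between libraries. The 2 rows therefore carry nearly the same information and are not separate evidence. Their log2 differences were 1.58 (SE 0.46) for MIR100HG:29 and 1.54 (SE 0.45) for MIR100HG:102, both at a limma adjusted p of 0.335.

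MIR100HG:25 was listed at 2.06 and 1.35 FPKM in MDA-MB-231-P3, against 0.0760 and 0.755 FPKM in MDA-MB-231. MIR100HG:67 was listed at 1.56 and 1.12 FPKM in MDA-MB-231-P3, against 0.804 and 0.110 FPKM in MDA-MB-231. Both rows were higher in the subline without overlap, and their parental libraries were far apart. MIR100HG:97 was listed at 1.299 and 0.644 FPKM in MDA-MB-231-P3, against 0.444 and 0.0787 FPKM in MDA-MB-231. MIR100HG:22 and MIR100HG:96 held identical values, 0.886 and 0.814 FPKM in MDA-MB-231-P3, against 0.764 FPKM and near 0 in MDA-MB-231. These last rows have 1 set of values between them, which enters the sum of the gene from both. With identical rows counted once, a choice made after the data were seen, the sum was 43.3 and 40.3 FPKM in MDA-MB-231-P3, against 22.8 FPKM in each MDA-MB-231 library.

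Other rows did not separate the lines. MIR100HG:76 was listed at 1.73 and 1.77 FPKM in MDA-MB-231-P3, against 1.34 and 1.85 FPKM in MDA-MB-231, so it took a smaller part of a larger sum. MIR100HG:78 was listed near 0 and at 2.36 FPKM in MDA-MB-231-P3, against 1.37 and 0.541 FPKM in MDA-MB-231. MIR100HG:9 was listed at 0.0881 and 1.40 FPKM in MDA-MB-231-P3, against 1.25 and 0.848 FPKM in MDA-MB-231. For both, the 2 subline libraries lay on either side of the parental ones.

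MIR100HG:77 was listed at 2.25 and 0.608 FPKM in MDA-MB-231-P3, against near 0 and 0.915 FPKM in MDA-MB-231. MIR100HG:17 was listed at 1.34 and 0.284 FPKM in MDA-MB-231-P3, against 0.483 and 0.187 FPKM in MDA-MB-231. Their groups overlapped. MIR100HG:56 was the 1 row of the 15 with both subline libraries below both parental ones, at 0.472 and 0.703 FPKM in MDA-MB-231-P3, against 1.06 and 0.841 FPKM in MDA-MB-231. Its log2 difference was -0.42 (SE 0.34, limma adjusted p = 0.604).

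**Figure D3:**
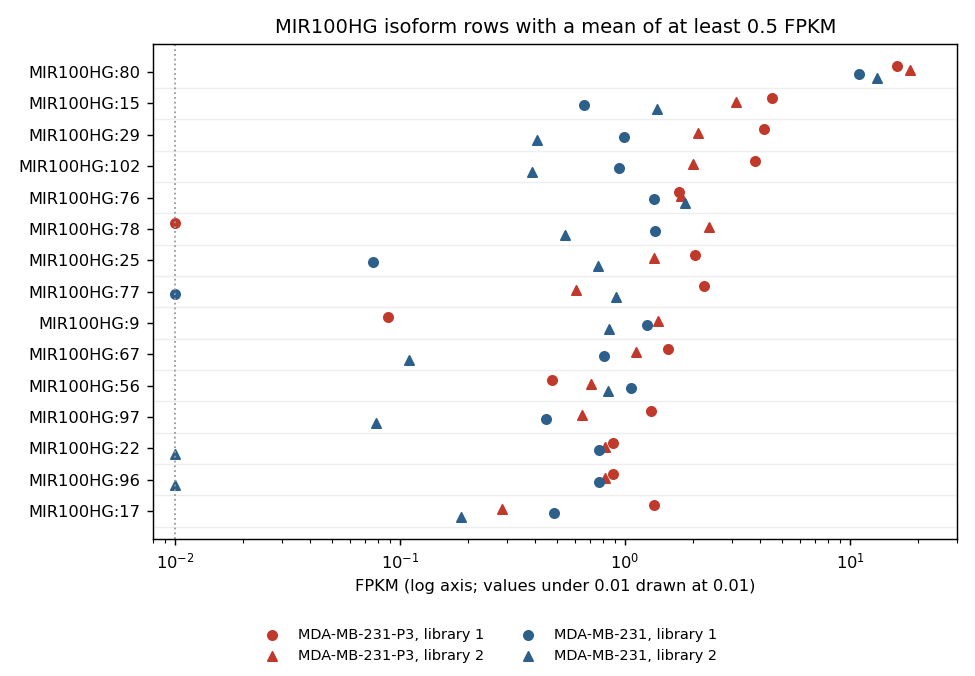
FPKM (horizontal log axis, values under 0.01 drawn at the dotted line) of the 15 MIR100HG rows with a mean of at least 0.5 FPKM, ordered from highest mean at the top, in each library of MDA-MB-231-P3 (red) and MDA-MB-231 (blue). MIR100HG:80 is highest in all 4 libraries, and MIR100HG:78, MIR100HG:77, MIR100HG:22 and MIR100HG:96 are near 0 in single libraries.

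Of the 15 rows tested, limma called 0 after adjustment over 8432 isoforms, and the smallest adjusted p among them was 0.323. Over all isoforms it also called 0, or 0%. An unadjusted p under 0.05 was reached by 3 rows, MIR100HG:15, MIR100HG:29 and MIR100HG:102, all higher in MDA-MB-231-P3, where 7.87% of all isoforms reached it in that direction. No row of the 15 reached it in the other direction, where 5.46% of all isoforms did. Both subline libraries lay above both parental ones for 9 of the 15 rows, against 27.3% of all tested isoforms. They lay below for 1 row, against 20.7% of all isoforms, and the groups of 5 rows overlapped. The log2 difference was positive for 12 of the 15 rows and for 54.0% of all tested isoforms, and the median was 0.76 against 0.085 over all. Rows of 1 gene share reads and include the identical and the near-proportional rows named above, so these counts are not counts of independent features. Among the 9, MIR100HG:25, MIR100HG:67, MIR100HG:97, MIR100HG:22 and MIR100HG:96 had parental means of 0.416, 0.457, 0.261, 0.382 and 0.382 FPKM. Among the 12 positive rows, MIR100HG:77 and MIR100HG:17, whose groups overlapped, had parental means of 0.458 and 0.335 FPKM. All of these means lie below the minimum, which the rows passed through the subline. The median of 0.76 is itself the value of the identical MIR100HG:22 and MIR100HG:96. A row that passed the minimum mainly through 1 line also had to differ, so the counts describe the 15 rows and not all 103.

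Most single rows differed more between the libraries of a line than their sum did. The median log2 difference between the 2 libraries of a line, over the 15 rows, was 0.47 in MDA-MB-231-P3 and 0.71 in MDA-MB-231. Over all tested isoforms it was 0.42 in MDA-MB-231-P3 and 0.51 in MDA-MB-231, and for the sum of MIR100HG it was 0.10 and 0.051. Within MDA-MB-231-P3, 3 of the 15 rows differed less than the sum, MIR100HG:76 by 0.025 and the identical MIR100HG:22 and MIR100HG:96 by 0.076, and within MDA-MB-231 none did. At the other end, MIR100HG:78 differed by 2.52 between the subline libraries and MIR100HG:77 by 1.501 between the parental ones. Of the 15 rows, 4 were listed under 0.001 FPKM in at least 1 library.

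The isoform composition was described by shares of the summed FPKM of MIR100HG, which do not depend on how a library was scaled. MIR100HG:80 took 36.5% and 44.7% in MDA-MB-231-P3, against 46.3% and 57.6% in MDA-MB-231. Both subline shares were below both parental shares, the closest being subline library 2 and parental library 1. The means were 40.6% ± 5.79 in MDA-MB-231-P3 and 52.0% ± 8.01 in MDA-MB-231 (SD, n = 2 each), a difference of -11.4 percentage points. The two-sided exact permutation p was 0.333, the smallest that 2 libraries against 2 can give, so no difference of shares could be called.

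MIR100HG:15 took 10.2% and 7.55% of the sum in MDA-MB-231-P3, against 2.78% and 6.07% in MDA-MB-231. The 3 highest rows together, MIR100HG:80, MIR100HG:15 and MIR100HG:29, took 56.0% and 57.4% in MDA-MB-231-P3, against 53.3% and 65.5% in MDA-MB-231, where the groups overlapped (exact permutation p = 1). The effective number of isoforms, the inverse of the summed squared shares, was 5.86 and 4.52 in MDA-MB-231-P3, against 4.26 and 2.86 in MDA-MB-231 (exact permutation p = 0.333). Rows needed to reach 90% of the sum numbered 12 and 14 in MDA-MB-231-P3, against 12 and 9 in MDA-MB-231.

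The overall composition did not sort the libraries by line. The part of the sum that would have to move between rows to turn the composition of one library into that of another was 22.8% within MDA-MB-231-P3 and 26.8% within MDA-MB-231. Between lines it ran from 15.1%, for subline library 2 and parental library 1, to 36.7%, for subline library 1 and parental library 2. The most alike pair thus came from different lines.

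**Figure D4:**
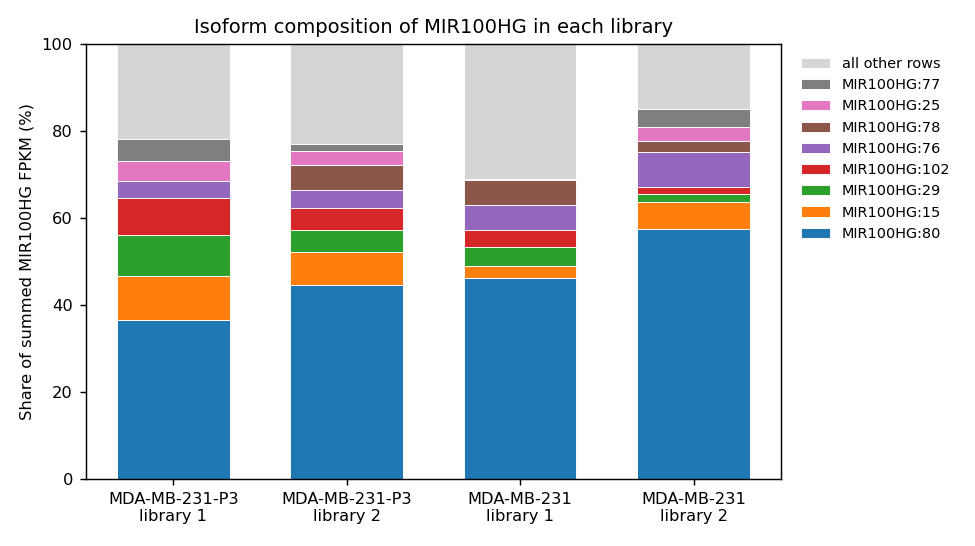
Share of the summed MIR100HG FPKM in percent (vertical axis) taken by the 8 rows of highest mean and by all other rows, in each library. MIR100HG:80, at the base, takes 36.5% and 44.7% in MDA-MB-231-P3 and 46.3% and 57.6% in MDA-MB-231.

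The sister host MIR99AHG was listed at 14.8 and 8.84 FPKM in MDA-MB-231-P3, against 6.03 and 6.55 FPKM in MDA-MB-231. Its groups did not overlap, but its subline libraries were far apart, with means of 11.8 ± 4.23 FPKM in MDA-MB-231-P3 and 6.29 ± 0.369 FPKM in MDA-MB-231 (SD, n = 2 each). The log2 difference was 0.82 (SE 0.34, limma adjusted p = 0.354), and it was -0.31 when its most abundant isoform stood for the gene, so its direction depends on the rows used. The same replacement left MIR100HG at 0.51. The gene SPACA6P-AS, fixed as the host name for the related cluster of MIR99B, MIRLET7E and MIR125A on chromosome 19, was listed at 0.427 and 0.0517 FPKM in MDA-MB-231-P3, against 0.250 and 0.825 FPKM in MDA-MB-231, and fell below the minimum. In GENCODE its counterpart SPACA6-AS1 lies on the minus strand and those 3 microRNA genes on the plus strand, so it is antisense to them. Of the 5 names searched for hosts of related clusters, 2 were listed.

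Among microRNA hosts, taken as genes whose names begin with MIR and end with HG, MIRLET7DHG included, with DLEU2, H19, MEG3 and CARMN where listed, MIR100HG ranked 5th of 58 by mean FPKM. The 4 above it were MIR663AHG, MIR4435-2HG, MIR3681HG and MIR17HG. Of the other 57 listed hosts, 25 passed the minimum, and limma called 0 of them higher and 0 lower. At an unadjusted p under 0.05 there were 6 higher and 1 lower of the 25, beside 9.5% higher and 5.68% lower over all tested genes. Among the 6, MIR3142HG, MIR193BHG and MIR210HG had parental means of 0.230, 0.0777 and 0.149 FPKM. Those means lie below the minimum, which these hosts passed through the subline. They had to be higher there to be tested, so the 6 cannot be read as a trend of microRNA hosts. The log2 difference was positive for 13 and negative for 12, with a median of 0.15, beside 54.7% positive and a median of 0.090 over all tested genes. MIR100HG ranked 7th of 26 tested hosts by log2 difference and 4th by p.

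MIR3681HG, the only host of the 25 that was lower at an unadjusted p under 0.05, was listed at 38.0 and 35.2 FPKM in MDA-MB-231-P3, against 69.2 and 61.2 FPKM in MDA-MB-231. It was therefore more abundant than MIR100HG in the parental line and less abundant in both subline libraries. MIR17HG, the host of an oncogenic microRNA cluster, was listed at 34.7 and 41.5 FPKM in MDA-MB-231-P3, against 33.6 and 30.4 FPKM in MDA-MB-231. It lay below MIR100HG in subline library 1, about level with it in subline library 2 and above it in both parental libraries. MIR663AHG, by far the most abundant host, was listed at 8337 and 10322 FPKM in MDA-MB-231-P3, against 6241 and 10760 FPKM in MDA-MB-231, where the groups overlapped. MIR4435-2HG, which shares near-identical sequence with CYTOR and is uncertain for that reason, was listed at 119 and 147 FPKM in MDA-MB-231-P3, against 185 and 192 FPKM in MDA-MB-231.

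BLID, a small protein-coding gene, lies inside MIR100HG on the same strand, between 121986048 and 121986923. Of 10 lncRNAs named for it, lnc-BLID-4, lnc-BLID-5 and lnc-BLID-6 passed the minimum, and each separated the lines as the sum of MIR100HG did. The lncRNA lnc-BLID-4 was listed at 8.81 and 8.42 FPKM in MDA-MB-231-P3, against 3.41 and 4.02 FPKM in MDA-MB-231. The lncRNA lnc-BLID-5 was listed at 10.1 and 7.83 FPKM in MDA-MB-231-P3, against 3.21 and 3.97 FPKM in MDA-MB-231. The lncRNA lnc-BLID-6 was listed at 3.89 and 2.87 FPKM in MDA-MB-231-P3, against 1.77 and 1.40 FPKM in MDA-MB-231. All 3 were higher in the subline without overlap, as were 28.9% of all tested genes. The ratios of their means were 2.32, 2.50 and 2.13, and none was called.

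Their log2 differences were 1.12 for lnc-BLID-4 (SE 0.25, limma adjusted p = 0.268), 1.21 for lnc-BLID-5 (SE 0.29, limma adjusted p = 0.268) and 0.89 for lnc-BLID-6 (SE 0.29, limma adjusted p = 0.304). The name of such a lncRNA denotes a nearby gene, and the files give neither position nor strand. Whether these lncRNAs overlap MIR100HG and share reads with it was not tested, so they are not counted as separate evidence.

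The other tested lncRNAs of the neighbourhood did not lie higher in MDA-MB-231-P3 without overlap. The table listed 43 lncRNAs named for 8 of the genes searched around MIR100HG, of which 31 stayed under 0.01 FPKM in every library and 6 passed the minimum. Limma called 0 of the 6 in either direction, and 3 were higher at an unadjusted p under 0.05, the lnc-BLID lncRNAs described above, beside 9.5% of all tested genes. The lncRNA lnc-UBASH3B-2, named for a protein-coding gene beyond the 5′ end, was listed at 0.874 and 1.70 FPKM in MDA-MB-231-P3, against 1.45 and 2.06 FPKM in MDA-MB-231. The lncRNA lnc-C11orf63-5, named by an older symbol of JHY, was listed at 2.12 FPKM in both MDA-MB-231-P3 libraries, against 2.19 and 3.25 FPKM in MDA-MB-231. Its log2 difference was -0.28 (limma adjusted p = 0.663), and 0.062 with libraries scaled to the same sum. The third, lnc-C11orf63-6, was listed at 1.16 and 0.143 FPKM in MDA-MB-231-P3, against 0.846 and 0.0919 FPKM in MDA-MB-231, and varied more within than between the lines.

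**Figure D5:**
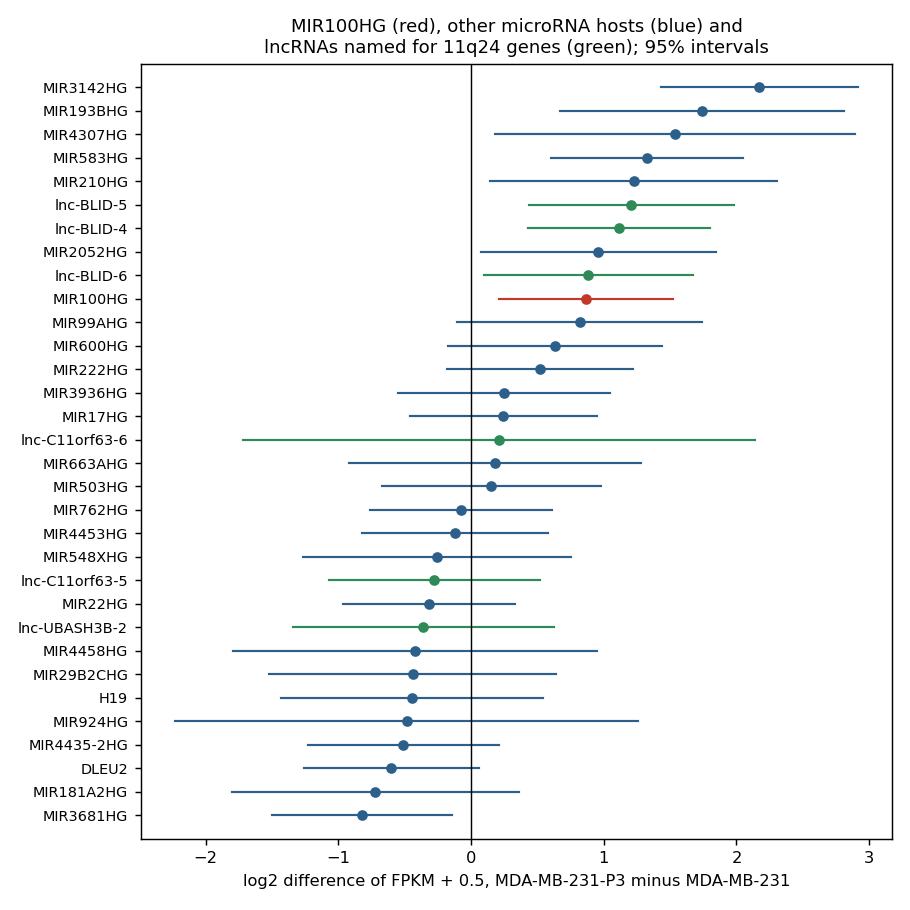
log2 difference of FPKM + 0.5, MDA-MB-231-P3 minus MDA-MB-231 (horizontal axis), with 95% intervals from limma, for MIR100HG (red), 25 other tested microRNA hosts (blue) and 6 tested lncRNAs named for 11q24 genes (green), in order of the difference. MIR100HG, at 0.87, lies between lnc-BLID-6 at 0.89 and MIR99AHG at 0.82, and no gene shown was called after adjustment over 6444 genes.

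Of 19 lncRNAs linked to TGF-β or epithelial-mesenchymal transition, a background in which MIR100HG is known, 17 were listed and 12 passed the minimum. Limma called 0 higher and 0 lower, with 4 higher and 2 lower of the 12 at an unadjusted p under 0.05, beside 9.5% higher and 5.68% lower over all tested genes. Among the 4, LINC01186 had a mean of 1.23 FPKM in MDA-MB-231-P3 and 0.414 FPKM in MDA-MB-231. It passed the minimum through the subline and so had to be higher there to be tested. The log2 differences were positive for 6 and negative for 6, with a median of 0.074, beside 54.7% positive and a median of 0.090 over all tested genes. The most abundant were MALAT1, a nuclear lncRNA, CYTOR and SNHG16. MALAT1 was listed at 1982 and 1616 FPKM in MDA-MB-231-P3, against 717 and 952 FPKM in MDA-MB-231, higher in both subline libraries without overlap. The log2 differences were 1.11 for MALAT1, -0.90 for CYTOR, which is uncertain for the reason given with MIR4435-2HG, and -0.43 for SNHG16, each beside the 0.87 of MIR100HG, with limma adjusted p of 0.282, 0.313 and 0.489. Scaling moved the last 2: CYTOR was at -0.29 with quantile normalization and -0.50 with libraries scaled to the same sum, and SNHG16 at -0.16 and -0.024. MIR99AHG and H19 stand both in this list and among the hosts.

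The genes whose values over the 4 libraries followed those of MIR100HG most closely were sought among 1097 genes of at least 5 FPKM on average. Likeness was the root-mean-square difference of log2(FPKM + 0.5) after each gene's own mean was taken away. The nearest was lnc-ST6GAL2-8, at a root-mean-square difference of 0.037, with 14.5 and 13.4 FPKM in MDA-MB-231-P3, against 7.79 and 6.94 FPKM in MDA-MB-231. It was followed by lnc-SPRED2-16 at 0.052, lnc-TCF19-1 at 0.054, lnc-HIST1H4J-1 at 0.056 and TCONS_00021152 at 0.072. Over 4 libraries such a profile is little more than a difference between the lines with close replicates, and many genes can match it. Among 25 other microRNA hosts of at least 0.5 FPKM the nearest were MIR600HG at 0.19, MIR222HG at 0.20 and MIR2052HG at 0.21. These came from a much smaller pool with a lower minimum, so their distances cannot be compared with those of the 5 genes above.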

How the data were processed

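RNA of MDA-MB-231-P3 and MDA-MB-231 was sequenced in 2 libraries per line. Per the labels' protocols, the authors used HISAT2 to align reads to hg19 and FPKM to normalize them. Each deposited FPKM value belongs to 1 lncRNA isoform. The submitters' processing notes also name StringTie. Not given in the sources used here are versions, the lncRNA annotation and the step that split reads between isoforms. That step sets every isoform share. It also enters the summed FPKM, since each isoform is scaled by its own length before summing. How much it moved the sum of MIR100HG was not tested. All 104786 values of each per-sample file equalled the series table, so 1 set was used.

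Isoforms were summed per gene by the name before the final number. Features with a mean of at least 0.5 FPKM entered limma 3.58.1 (R 4.3.3) as log2(FPKM + 0.5) (eBayes with an intensity trend, two-sided, MDA-MB-231-P3 minus MDA-MB-231, no block), with Benjamini-Hochberg adjustment over all features tested and a threshold of 0.05. The pseudocount understates differences of low features. Depth is unknown, so no counting interval is given. Shares were compared by an exact permutation test (scipy 1.17.1). The fit was tested on simulated data that gave every feature the same spread, unlike the deposited values. That test therefore does not show how limma behaves on features of uneven spread. Sequences were matched with Python 3.11.15, and plots drawn with matplotlib 3.10.9.

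Named were the MIR100HG rows of at least 0.5 FPKM, listed hosts of related clusters, the 4 most abundant microRNA hosts, 11q24 lncRNAs of at least 0.5 FPKM, the 3 most abundant TGF-β-linked lncRNAs and the nearest profiles. The members and lists were chosen with earlier results of these data known. The older symbol C11orf63 was matched to JHY through RefSeq. Alternatives were pseudocounts of 0.1 and 1, other minimums, quantile normalization, centring, scaling to the same sum, no trend, a replicate block, other sums per gene and leaving out each library.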

Additional observations from a re-analysis of the deposited data

How the results depend on the processing

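The summed level of MIR100HG stayed higher in MDA-MB-231-P3 and uncalled under all 17 alternatives, with log2 differences of 0.51, for its leading isoform in place of the sum, to 1.27, for libraries scaled to the same sum, and adjusted p of 0.178 to 0.604. Without single libraries it was 0.82 to 0.92. With the replicate number as a block it was 0.87 (limma adjusted p = 0.354). Same-numbered libraries deviated together weakly (correlation 0.047 over isoforms and 0.078 over genes), and the labels do not pair them. No MIR100HG isoform was called by limma under any of 13 alternatives, the replicate block included.

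Over all features, 4 genes were called as reported, 0 with a pseudocount of 1, without the filter, without the trend, with the replicate block or without any 1 library, and 2 with quantile normalization. Scaling to the same sum gave 5. Summing only isoforms of at least 0.5 FPKM gave 1 higher and 1 lower, and the most abundant isoform in place of each sum gave 0. For isoforms the count was 0, and 6 with a minimum of 1 FPKM. The share difference of MIR100HG:80 was -11.4 percentage points, -17.0 to -5.69 without single libraries, and -2.67 for the 3 highest rows together.

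Of the 15 isoforms, 12 kept their direction in every alternative that could be run for them. That was all 13 for 7 isoforms and 11 or 12 for the other 8, which fell below a minimum of 1 FPKM and, for MIR100HG:97 and MIR100HG:17, also below the minimum without MDA-MB-231-P3 library 1. Leaving out single libraries gave MIR100HG:76 differences of -0.062 to 0.29, MIR100HG:78 of -1.48 to 1.04, and MIR100HG:9 of -1.39 to 0.31. Of 22 other named genes, 18 kept their direction where run. MIR99AHG became -0.16 when only isoforms of at least 0.5 FPKM were summed and -0.31 with its leading isoform, lnc-C11orf63-5 became 0.062 with scaling to the same sum, and lnc-C11orf63-6 became -0.088 with quantile normalization. Without single libraries, MIR663AHG ranged from -0.21 to 0.57 and lnc-C11orf63-6 from -0.38 to 0.89. For all of these the cause was not tested. With a library left out, the spread came from the other line and was taken to hold for the single library.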
